A study of Homo sapiens with 18 samples.

Results

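Abundant structural noncoding RNAs were followed in K562 cells in which the beta-2 microglobulin gene B2M had been silenced by targeted DNA methylation. The group held 9 genes chosen by symbol: RN7SL1, RN7SL2, RN7SK, RPPH1, RMRP, TERC, MALAT1, NEAT1 and VTRNA1-1. They are 9 of 55766 entries in the gene count table, all 9 were found there, and 8 had enough counts to be tested. VTRNA1-1 did not. K562 is an established human erythroleukaemia line, and all cells here, controls included, carried a B2M:tdTomato transgene, a fusion of B2M to a red fluorescent protein. Per the labels, 1 group was untreated, 1 was silenced with TALE proteins and 1 with dCas9. Both are DNA-binding proteins that can be directed to a chosen sequence, TALE by its repeats and dCas9, a Cas9 that does not cut, by a guide RNA. Silenced cells were given 3 plasmids, each coding for a different ATR, as the labels call it: 1 µg of the D3A-based plasmid, the others at equal molar amounts and, for dCas9, 250 ng of guide RNA plasmid. Each group had 3 RNA-seq libraries from total RNA and 3 MeDIP-seq libraries, in which an antibody captures DNA with methylated cytosine. The labels do not say whether replicates were separate treatments, so p-values measure the spread between these samples, which may be technical. The time of collection was not given either.

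RNAs of this kind do their work without being translated. RN7SL1 and RN7SL2 code for 7SL, the scaffold of the signal recognition particle that delivers nascent secreted and membrane proteins to the endoplasmic reticulum, and Alu repeats descend from 7SL. RN7SK codes for 7SK, which holds the elongation kinase P-TEFb inactive. RPPH1 is the catalytic RNA of RNase P, which trims the 5′ end of tRNA precursors, and RMRP is its relative in RNase MRP, which acts on ribosomal RNA precursors. TERC is the template of telomerase, and VTRNA1-1 is part of the vault particle. RNA polymerase III transcribes these small RNAs other than TERC. TERC, MALAT1 and NEAT1 are products of RNA polymerase II. MALAT1 accumulates in nuclear speckles and NEAT1 is the scaffold of paraspeckles.

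Some of these RNAs have near copies in the genome. Sequences of a few members that bear on what a read can be assigned to are shown first, from GENCODE transcripts on GRCh37. RN7SK lies at chr6:52860419-52860746 on the plus strand and is 328 bases long. Its last 128 bases are shown, from position 201 to 328. Capitals mark the 96 bases that fall in at least 1 window of 32 bases found at a single place in the genome, and all other bases of the RNA lie outside such windows.
RN7SK: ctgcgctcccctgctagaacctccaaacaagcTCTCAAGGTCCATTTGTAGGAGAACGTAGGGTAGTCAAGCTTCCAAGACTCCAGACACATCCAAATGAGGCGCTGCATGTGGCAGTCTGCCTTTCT
VTRNA1-1 lies at chr5:140090860-140090958 and VTRNA1-3 at chr5:140105743-140105831, both on the plus strand. They are 99 and 89 bases long and were identical in 83 of 100 aligned columns. Capitals mark bases that differ or have no partner in the other RNA.
VTRNA1-1: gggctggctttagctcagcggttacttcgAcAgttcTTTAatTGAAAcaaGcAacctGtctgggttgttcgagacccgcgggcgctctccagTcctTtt
VTRNA1-3: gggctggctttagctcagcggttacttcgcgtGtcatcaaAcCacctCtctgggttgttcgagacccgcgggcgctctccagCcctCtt

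Across the genome, the share of the windows of 32 bases in RN7SK found at 1 place was 11.8% of 297 windows, with a median of 5 places. Every window of RMRP and of TERC occurred at 1 place, as did 94.1% of those of VTRNA1-1, 97.8% of MALAT1 and 95.4% of NEAT1. The rule for reads that match several places is not given in the sources used here, so the counts of RN7SL1, RN7SL2 and RN7SK are uncertain as to the gene they came from. RMRP lies at chr9:35657751-35658014 on the minus strand, 273 bases from CCDC107. TERC lies at chr3:169482308-169482848 on the minus strand, 1861 bases from ACTRT3. MALAT1 lies at chr11:65265111-65275544 and NEAT1 at chr11:65190245-65213011, both on the plus strand. MALAT1 overlaps the antisense gene TALAM1, and without a stated use of strand their reads cannot be told apart. RN7SL1 and RPPH1 had no entry by symbol in the annotation used here, so they have no position, length or sequence below.

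Total RNA counts ranged from 8460076 to 12050554 per library. The target was reduced in both silenced groups: B2M_tomato, the entry of the transgene, read 359 to 393 CPM (counts relative to the library total scaled by its TMM factor) in untreated, 12.5 to 18.2 in TALE and 13.9 to 19.0 in dCas9 libraries. B2M itself read 5.93 to 6.89, 0.294 to 0.539 and 0.185 to 0.311. The 9 markers of K562, among them the embryonic and fetal globins and GATA1, were all detected, with a summed level of 6721 to 10559 CPM. Genes of the mitochondrial genome took 7.15, 10.3 and 10.2% of counts in untreated, 6.00, 4.04 and 6.32% in TALE and 6.15, 14.0 and 10.8% in dCas9 libraries, in replicate order.

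The 9 RNAs together took between 3.84 and 7.25% of all counts. Their share was 4.89, 7.11 and 7.19% in the untreated libraries, 3.84, 4.66 and 5.91% in TALE and 7.25, 3.89 and 6.01% in dCas9. Untreated and TALE libraries overlapped, and the lowest and the highest dCas9 library spanned nearly the whole range. RN7SL1 ranked 1 among all genes tested by counts, RPPH1 4, RN7SK 7, RMRP 8, MALAT1 13 and RN7SL2 15. NEAT1 ranked 1087 and TERC 5535. RN7SL1 alone took from 0.84% of counts in dCas9 replicate 2 to 3.00% in dCas9 replicate 1.

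Levels per kilobase of exon can be set side by side between genes, but only for members with an annotated length. RN7SL1 and RPPH1 had none and are left out of this order. Among the others, RMRP stood highest in untreated cells at 30926 ± 7964 CPM per kb (SD, n = 3). RN7SK followed at 22765 ± 7282 and RN7SL2 at 21354 ± 4419 CPM per kb. The ranges of these 3 overlapped over the untreated libraries, so their order was within the spread. MALAT1 read 550.3 ± 127.6, TERC 64.2 ± 11.9, NEAT1 8.01 ± 2.3 and VTRNA1-1 2.36 ± 1.43 CPM per kb. Each of these stood clear of its neighbours in the order in all 3 untreated libraries. VTRNA1-1 rests on 1, 3 and 2 counts there, so its distance from NEAT1 is uncertain. The length of NEAT1 is that of all its annotated exons merged, 22767 bases, and its place below TERC rests on that length.

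**Figure D1:**
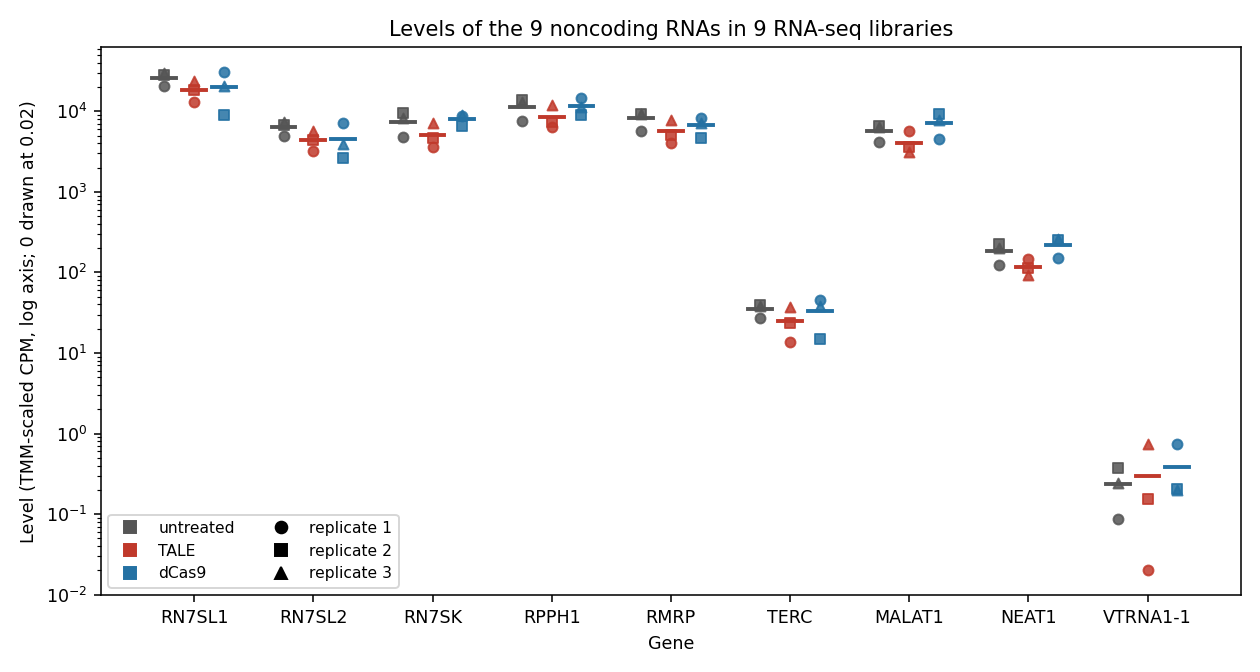
Level of each of the 9 RNAs (TMM-scaled CPM, log axis) in every RNA-seq library, by group in colour and by replicate in marker shape, with a bar at the group mean. The groups overlap for every RNA in both comparisons with untreated cells, and VTRNA1-1 stays under 1 CPM, with its single 0 drawn at 0.02.

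No RNA of the group passed the test in any comparison (edgeR's quasi-likelihood test, Benjamini-Hochberg adjusted p under 0.05 over 13786 genes). Against untreated cells, 0 of 8 tested members were called with TALE and 0 of 8 with dCas9, where 0.0218% and 0.029% of all tested genes were called. TALE against dCas9 gave 0 of 8, with 0% of all genes called. At an unadjusted p under 0.05 the counts were 1, 0 and 3 of 8 members, against 7.15, 5.93 and 6.38% of all genes. DESeq2 called 0, 0 and 0 members. In TALE cells all 8 estimates lay below untreated, with a median log2 difference of -0.51 against 0.0024 over all tested genes. The share of all genes below untreated was not counted. The 8 are not separate readings, as levels of most small RNAs, and of MALAT1 and NEAT1, were correlated across libraries. Single libraries moved the estimates: without TALE replicate 1, RN7SL1 was -0.31 and TERC -0.20, while MALAT1 was -0.78 and NEAT1 -0.83. The dCas9 estimates were 4 below and 4 above untreated, with a median of -0.020 against -0.0031. In bulk RNA, fewer cells with an RNA and less of it per cell cannot be told apart. The comparisons with untreated cells share the 3 untreated libraries. Of these, replicates 2 and 3 were much alike, with a chi-square per degree of freedom of 2.12 between their counts over tested genes. The other pairs of RNA libraries within a group gave 12.9 to 54.4. Whether untreated replicates 2 and 3 are separate samples is not given in the labels.

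Mitochondrial genes had lower estimates in TALE cells as well. The 32 tested genes of the mitochondrial genome had a median log2 difference of -0.88 when TALE was set against untreated, 0.24 with dCas9 in place of TALE and -1.13 for TALE against dCas9, with 0 called in each. Their part in the result was not tested. No alternative turned the sign of a member in TALE against untreated. Without a filter on low counts the calls changed: NEAT1 was then called for TALE against untreated (adjusted p 0.0175), and RN7SK, MALAT1 and NEAT1 for TALE against dCas9 (0.0409, 0.000844 and 7.63e-07), all lower in TALE. That fit called 74, 89 and 77 genes in all in the 3 comparisons.

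The 7SL genes come first. RN7SL1, the gene with the most counts in the group, read 20756, 28028 and 29754 CPM in untreated, 13241, 18202 and 24001 in TALE and 30543, 8914 and 20763 in dCas9 libraries. The dCas9 group alone held both the highest and the lowest of the 9 values, and all groups overlapped. RN7SL1 differed by -0.50 on the log2 scale for TALE against untreated (SE 0.35, 95% interval -1.24 to 0.24), and by -0.38 for dCas9 (-1.12 to 0.36). RN7SL2, the second 7SL gene, read 4874, 6751 and 7402 CPM in untreated, 3236, 4356 and 5715 in TALE and 7235, 2603 and 3931 in dCas9 libraries. As for RN7SL1, dCas9 replicate 2 and TALE replicate 1 were the lowest libraries, and all groups overlapped. RN7SL2 differed by -0.52 for TALE (SE 0.30, 95% interval -1.15 to 0.12) and by -0.47 for dCas9 (-1.10 to 0.17). Summing both genes gave -0.51 (SE 0.35) and -0.40 (SE 0.35), with adjusted p values of 0.803 and 0.967 by edgeR.

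The division of 7SL counts between the genes was similar in 7 libraries and departed further in the other 2. RN7SL1 counts exceeded RN7SL2 counts by 4.02 to 4.26 times in all untreated and TALE libraries and in dCas9 replicate 1. In dCas9 replicate 2 the ratio was 3.42 and in dCas9 replicate 3 it was 5.28. RN7SL2 thus made up 22.6% of both (Wilson 95% interval 22.4 to 22.8) in replicate 2 and 15.9% (15.8 to 16.1) in replicate 3, and 19.0 to 19.9% elsewhere. The RN7SL2 counts behind the 2 departing shares were 25143 and 39650. These intervals cover counting error only, and not how reads that match both genes were assigned. Shares among the 7 similar libraries also differed beyond counting error. Untreated replicate 1 gave 19.0% (18.9 to 19.2) and untreated replicate 3 gave 19.9% (19.8 to 20.1). The departures went in opposite directions within 1 group, and the mean ratio was 4.31 ± 0.93 (SD, n = 3) in dCas9 against 4.14 ± 0.12 in untreated and 4.16 ± 0.058 in TALE libraries. An exact two-sided permutation test of the mean log ratio gave p = 0.8 for dCas9 against untreated, where 3 libraries against 3 cannot go below 0.1. Opposite departures offset each other in a mean, so this test does not address them, and the spread within dCas9 was not tested.

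**Figure D2:**
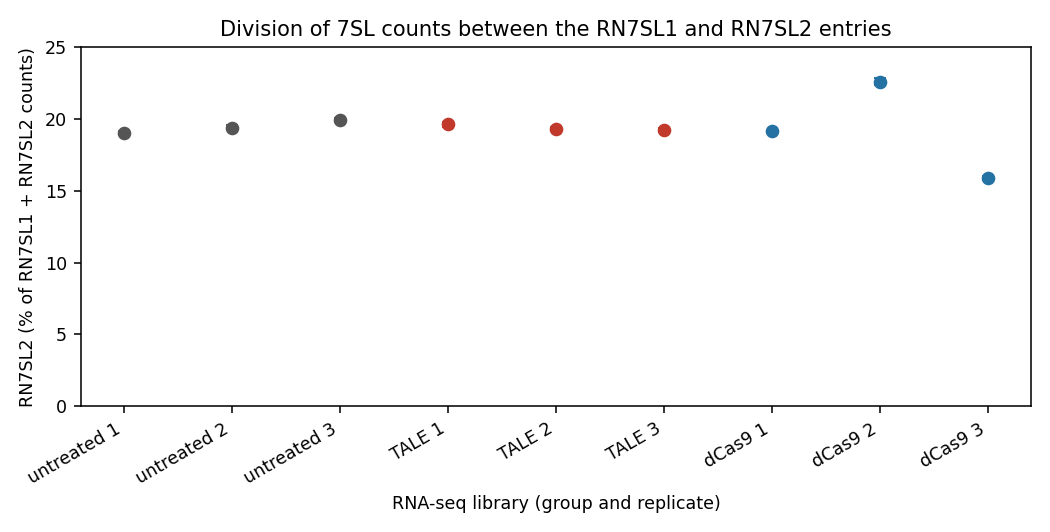
Share of the counts of both 7SL genes that fell on RN7SL2 (percent, axis from 0) in each library, with Wilson 95% intervals about as small as the points or smaller. In 7 libraries the share is 19.0 to 19.9%, in dCas9 replicate 2 it is 22.6% and in dCas9 replicate 3 it is 15.9%.

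Other entries of these families took few counts. The table holds 847 further entries with an RN7SL name, of which 357 had any count, and their 7404 counts over all libraries were 0.304% of those of RN7SL1 and RN7SL2. RN7SL5P with 3419 counts and RN7SL4P with 953 were the most abundant, and RN7SL3 had 873. Further entries with an RN7SK name numbered 292, with 134 counted and a sum of 7274, or 1.17% of RN7SK. RN7SKP255 with 4691 and RN7SKP203 with 1303 counts led them.

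RN7SK, the gene of 7SK, read 4798, 9404 and 8198 CPM in untreated, 3558, 4627 and 7244 in TALE and 8630, 6501 and 9119.7 in dCas9 libraries. TALE replicates 1 and 2 were the lowest of the 9, and TALE replicate 3 lay above untreated replicate 1. RN7SK differed by -0.54 on the log2 scale for TALE against untreated (SE 0.28, 95% interval -1.12 to 0.043), by 0.11 for dCas9 (-0.46 to 0.69) and by -0.65 for TALE against dCas9 (-1.23 to -0.070, unadjusted p 0.0301 and adjusted p 0.745 by edgeR).

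RPPH1 read 7481, 13814 and 13058 CPM in untreated, 6429, 7339 and 11935 in TALE and 14479, 9084 and 11293 in dCas9 libraries. All groups overlapped, with the same pair of TALE libraries lowest. RPPH1 differed by -0.42 for TALE (SE 0.28, 95% interval -1.01 to 0.18) and by 0.021 for dCas9 (-0.57 to 0.61). RMRP, its relative, read 5737, 9380.5 and 9376 CPM in untreated, 4013, 5079.7 and 7788 in TALE and 8219.8, 4720.2 and 7119 in dCas9 libraries. Here dCas9 replicate 2 lay below TALE replicate 2. RMRP differed by -0.54 for TALE (SE 0.27, 95% interval -1.11 to 0.037) and by -0.29 for dCas9 (-0.86 to 0.28).

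RPPH1 and RMRP share nearly all of their protein subunits, and RPPH1 had more counts than RMRP in every library. The ratio of RPPH1 to RMRP counts was 1.30, 1.47 and 1.39 in untreated, 1.60, 1.45 and 1.53 in TALE and 1.76, 1.92 and 1.59 in dCas9 libraries. The lowest dCas9 value lay above the highest untreated value, while TALE overlapped both groups. For dCas9 against untreated the exact permutation p was 0.1, the smallest this design allows, and 0.6 after Benjamini-Hochberg adjustment over 9 ratio comparisons.

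TERC, the telomerase RNA, was far rarer. It read 27.3, 38.9 and 37.9 CPM in untreated, 13.6, 23.5 and 36.95 in TALE and 46.0, 14.8 and 38.3 in dCas9 libraries, on 139 to 496 counts. TALE replicate 1 and dCas9 replicate 2 were lowest, and all groups overlapped. TERC differed by -0.48 for TALE against untreated (SE 0.32, 95% interval -1.16 to 0.20) and by -0.062 for dCas9 (-0.73 to 0.61). Between the silenced groups, TALE minus dCas9 on the log2 scale was -0.42 for TERC (95% interval -1.10 to 0.25), -0.44 for RPPH1 (-1.03 to 0.15) and -0.25 for RMRP (-0.82 to 0.32). For RN7SL1 it was -0.12 (-0.86 to 0.62) and for RN7SL2 -0.049 (-0.68 to 0.58), and both turned positive without TALE replicate 1 or dCas9 replicate 1.

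MALAT1, the nuclear speckle RNA, read 4214, 6655 and 6355 CPM in untreated, 5627, 3565 and 3101 in TALE and 4505, 9263 and 7719 in dCas9 libraries. TALE replicate 3 was lowest and dCas9 replicate 2, which was low for the 7SL RNAs, RMRP and TERC, was highest. MALAT1 differed by -0.49 for TALE against untreated (SE 0.28, 95% interval -1.07 to 0.093), by 0.32 for dCas9 (-0.26 to 0.90) and by -0.81 for TALE against dCas9 (-1.39 to -0.22, adjusted p 0.687 by edgeR). Of the group, RefSeq promoter windows (GRCh38.p14, 250 bases before to 50 after a start) were matched for MALAT1 alone, with 2 windows. The TATA-box core TATAA was found on either strand in 1 of them and in 20.4% of 35116 windows. The octamer ATGCAAAT, the B box core GTTCGANNC and the ZNF143 core ACTACAA were in neither, and in 1.77, 0.829 and 2.77% of all windows.

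NEAT1, the paraspeckle scaffold, gave the largest difference of the group in both comparisons with TALE, though not for dCas9 against untreated. It read 123, 223 and 201 CPM in untreated, 149, 112 and 91.7 in TALE and 150.1, 250.2 and 258 in dCas9 libraries. All TALE libraries lay below all dCas9 libraries, though TALE replicate 1 and dCas9 replicate 1 were nearly equal, and TALE overlapped untreated. NEAT1 was the single member whose groups did not overlap, and this in TALE against dCas9 only, where 9.38% of all tested genes did not overlap. In TALE against untreated and in dCas9 against untreated 0 of 8 members had groups that did not overlap, against 12.5 and 11.6% of all genes. NEAT1 differed by -0.90 on the log2 scale for TALE against dCas9 (SE 0.22, 95% interval -1.37 to -0.43, unadjusted p 0.00078), with an adjusted p of 0.511 by edgeR. It ranked 10 by p among all genes tested. For TALE against untreated it differed by -0.63 (SE 0.22, 95% interval -1.10 to -0.16, unadjusted p 0.0109 and adjusted p 0.585), and for dCas9 by 0.27 (-0.20 to 0.73). Without dCas9 replicate 1, the difference of NEAT1 between TALE and dCas9 was -1.11, with an adjusted p of 0.0386 by edgeR, and 21 genes were called in place of 0.

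**Figure D3:**
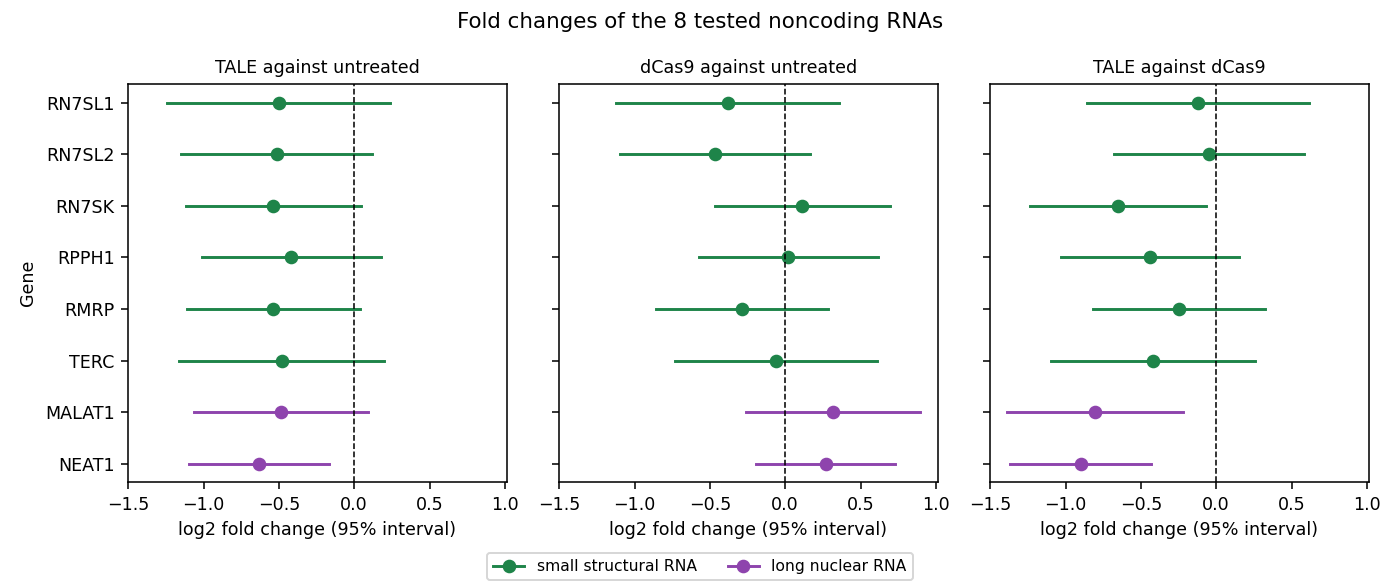
Log2 fold change with its 95% interval for the 8 tested RNAs in the 3 comparisons, small structural RNAs in green and long nuclear RNAs in purple. All TALE against untreated estimates are below 0, between -0.42 and -0.63, and of these only the interval of NEAT1 excludes 0.

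VTRNA1-1 was all but absent while a close relative was counted. It had 1, 3 and 2 counts in untreated, 0, 2 and 8 in TALE and 8, 2 and 2 in dCas9 libraries, and was not tested. A count of 0 allows up to 3 counts at that depth. VTRNA1-3, whose sequence is set beside it above, had 659, 941 and 894 counts in untreated, 692, 910 and 1202 in TALE and 1395, 893 and 1059 in dCas9 libraries. VTRNA1-3 thus stood above VTRNA1-1 in every library. Its level was 94.0 ± 31.8 CPM in untreated (SD, n = 3), 83.1 ± 24.5 in TALE and 108.9 ± 18.7 in dCas9 cells. The other vault RNAs, VTRNA1-2 and VTRNA2-1, had at most 7 and 11 counts in a library. All 3 VTRNA1 genes lie within an annotated gene on the same strand, ENSG00000292256, and how reads in the overlap were counted is not given in the sources used here.

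Spread within groups was wide beside that of most tested genes. The coefficient of variation within a group, averaged over the 3 groups, was 26.9% for NEAT1, 28.7% for RN7SK, 29.0% for RMRP and 29.3% for RPPH1. It was 29.96% for MALAT1, 33.6% for RN7SL2, 33.8% for RN7SL1 and 38.4% for TERC. The median over all tested genes was 13.2%, and over the 93 genes with a mean of at least 1000 CPM it was 14.2%. NEAT1 and TERC lay below 1000 CPM and were not compared with genes of like abundance. Each of the 8 members varied more than at least 84.8% of tested genes, and the highest library exceeded the lowest by 2.25 times for RPPH1 to 3.43 times for RN7SL1.

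Levels of most pairs of small RNAs were correlated across libraries. Over the 9 libraries, the 15 pairs among RN7SL1, RN7SL2, RN7SK, RPPH1, RMRP and TERC had Pearson's r of log2 CPM from 0.547 to 0.964 and Spearman's rho from 0.517 to 0.933. Of these, 11 had an adjusted p under 0.05 (exact permutation test, Benjamini-Hochberg over 28 pairs of members). The share of all gene pairs that would pass was not computed. From 38 (RN7SK) to 77 (RN7SL2) tested genes had r over 0.9 with each of these RNAs, so a high r was not particular to members. RN7SL1 with RN7SL2 gave r = 0.964 and rho = 0.933 (exact permutation p 4.41e-05, adjusted 0.000887), and 0.945 without the 2 farthest libraries. RMRP with RPPH1 gave r = 0.925 and rho = 0.9 (exact permutation p 0.001, adjusted 0.00448), and 0.946 without those 2. RN7SK with RN7SL2 was the weakest pair, at r = 0.547 (exact permutation p 0.128, adjusted 0.224). The 2 farthest libraries are those farthest from the median of 1 RNA of the pair, so they can differ between pairs. With them left out, r over the 15 pairs ran from 0.381 to 0.946, with RN7SK and the 7SL genes lowest. After the group means were taken out, r over the 15 pairs ran from 0.6999 to 0.971. RN7SL1 and RN7SL2 both code for 7SL, so their pair is not 2 separate measurements.

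MALAT1 and NEAT1 were the pair of long RNAs. Their r was 0.970 and rho 0.967 (exact permutation p 6.34e-05, adjusted 0.000887), with 0.962 without the 2 farthest libraries and 0.954 after the group means were taken out. The ratio of MALAT1 to NEAT1 counts stayed between 29.9 and 37.8 in all libraries. The 12 pairs of a small and a long RNA had r from -0.382 to 0.486, and none had an adjusted p under 0.05, the lowest being 0.300. For these pairs r was -0.211 to 0.509 without the 2 farthest libraries and -0.647 to 0.038 after the group means were taken out, so its sign depended on the measure.

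The members were also set against the mitochondrial share of counts. Other genes were not, so no share over all tested genes can be given beside these values. MALAT1 gave r = 0.885 and rho = 0.800 with that share (exact permutation p 0.00204 and 0.0138, adjusted 0.0164 and 0.0553 over 8 members). NEAT1 gave r = 0.860 and rho = 0.800 (exact permutation p 0.00428 and 0.0138, adjusted 0.0171 and 0.0553). Without the 2 libraries farthest from the median share, r was 0.759 and 0.795, and after the group means were taken out 0.797 and 0.717. For the 6 small RNAs r lay between -0.299 and 0.499, with adjusted p of at least 0.452 by the exact permutation test. Without the 2 farthest libraries their r was 0.452 to 0.702, so for the small RNAs the value rests on those libraries, and the difference from the long RNAs was not tested. No batch, date or RNA quality is given in the labels, so no value within a batch can be had.

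**Figure D4:**
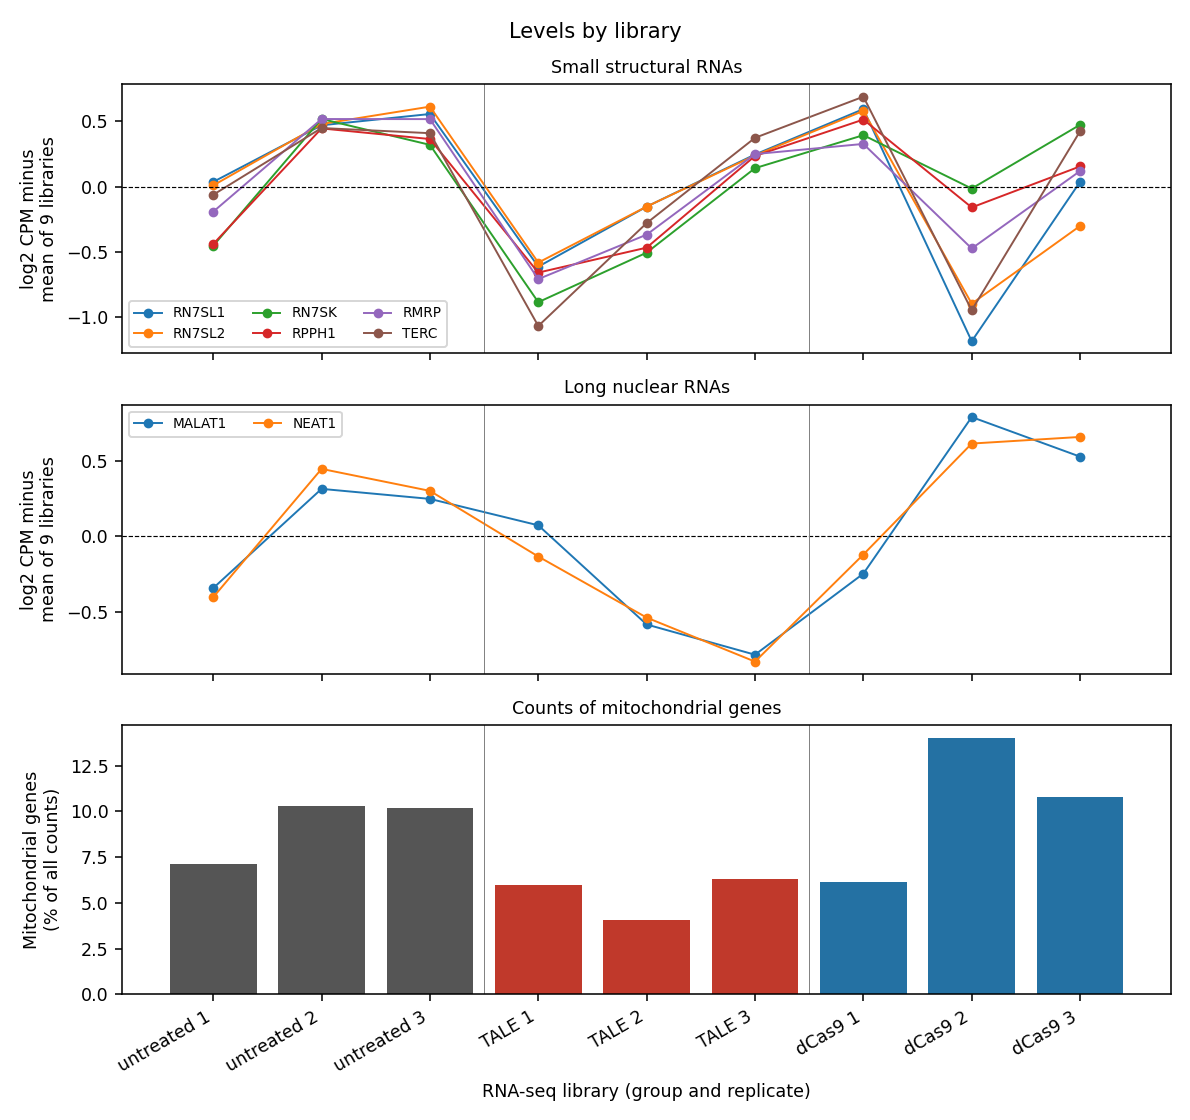
Log2 CPM of each RNA minus its mean over the 9 libraries, small RNAs in the upper panel and long nuclear RNAs in the middle, above the share of counts on mitochondrial genes (percent, bars from 0) in the same libraries. TALE replicate 1 is low for all small RNAs and dCas9 replicate 2 for the 7SL RNAs, RMRP and TERC, while MALAT1 is highest in dCas9 replicate 2, which has the highest mitochondrial share, 14.0%.

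The tested genes most like each member across the 9 libraries are given as a description. They are the 2 highest of 13786 tested genes, and from 38 (RN7SK) to 77 (RN7SL2) genes had r over 0.9 with a member. No pairing is thus read as particular. RPPH1 was among the 2 nearest genes of RN7SK (r = 0.951), after RNU2-59P (0.954). RN7SL1 was nearest to its own copy RN7SL5P (0.995) and to the small Cajal body RNA SCARNA2 (0.981). RN7SL2 was nearest to the ribosomal protein genes RPL17 (0.983) and RPS14 (0.983). RMRP was nearest to NDUFB9 (0.973), a subunit of respiratory complex I, and to the histone gene HIST1H4C (0.970). RPPH1 was nearest to RPL39P3 (0.968) and NDUFB9 (0.963), TERC to STX8 (0.970) and CXCL3 (0.966), and MALAT1 to HNRNPU-AS1 (0.980) and LL22NC03-2H8.5 (0.978). NEAT1 was nearest to XIST (0.972) and then to MALAT1 (0.970).

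The protein partners of these RNAs were not called either. Of the 8 genes of the signal recognition particle and its receptor, 0 passed the test in each of the 3 comparisons. SRP72, a core subunit, read 537.9 CPM in TALE, 507.6 in dCas9 and 510.9 in untreated cells on average. SRP68, its partner in the particle, differed by 0.18 for TALE (adjusted p 0.797 by edgeR), and SRPRB, a subunit of the receptor, by 0.27 for dCas9 (adjusted p 0.82). The median log2 difference over the 8 was 0.045 for TALE and 0.040 for dCas9 against untreated, against -0.50 and -0.38 for RN7SL1 itself. Among 6 tested genes of the 7SK particle and P-TEFb, 0 were called, with a median of 0.12 for TALE and 0.13 for dCas9. LARP7, which binds the 3′ end of 7SK, differed by 0.27 in TALE (95% interval -0.00023 to 0.55), and MEPCE, which caps it, by 0.39 (0.023 to 0.75, adjusted p 0.670 by edgeR).

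Among 11 protein genes of RNase P and RNase MRP, 0 were called, with a median log2 difference of 0.14 for TALE and -0.030 for dCas9 against untreated. RPP25 differed by 0.35 for TALE (adjusted p 0.804 by edgeR), POP7 by 0.29 (adjusted p 0.693), and RPP40 by -0.33 for dCas9 (adjusted p 0.864). Of the 8 telomerase and H/ACA genes 0 were called. TERT, the reverse transcriptase that copies TERC, read 1.01 CPM in untreated, 0.91 in TALE and 0.68 in dCas9 cells. DKC1, which binds TERC, differed by 0.23 for TALE (95% interval -0.017 to 0.49), and WRAP53, which carries telomerase to Cajal bodies, by 0.44 (0.11 to 0.77, adjusted p 0.585 by edgeR).

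None of 10 paraspeckle and nuclear speckle genes was called, with medians of 0.15 and 0.080. PSPC1, a paraspeckle protein, differed by 0.31 for TALE against untreated (adjusted p 0.602 by edgeR), opposite in sign to NEAT1. SRSF1 differed by 0.28 and SRRM2, a core speckle protein, by -0.11. For the vault particle 3 of 6 listed genes were tested and 0 called: TEP1 differed by -0.52 for TALE (95% interval -1.10 to 0.047) and VTRNA1-3 by -0.17, while MVP, the major vault protein, had too few counts. Of the 29 genes of RNA polymerase III, its factors and La, 0 were called, with medians of 0.091 and -0.051. POLR3B, a core subunit, differed by 0.39 for TALE (adjusted p 0.585 by edgeR), BRF1 by -0.33 for dCas9 (adjusted p 0.904) and SSB, the gene of La, by 0.23 for TALE (adjusted p 0.805).

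DNA methylation beside the genes was read from MeDIP counts over 198884 regions, with 2529729 to 4492751 counts per library. Of the 7 members with a position, 6 had a region within 2 kb, and RN7SL2 had none. The 12 regions comprised 5 upstream, 4 downstream and 3 that overlapped NEAT1, and 8 had enough counts to be tested. Of the members with a position, only NEAT1 was overlapped by a region. RN7SL1 and RPPH1 had no position, so regions beside or over them were not looked up. The table lists regions and not the genome, so a gene without one has no value here.

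Of the 12 regions, 4 had a peak in all 9 of the authors' lists, among them 1 upstream of TERC and 1 upstream of VTRNA1-1.

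TERC upstream methylation read 12.9, 14.0 and 14.6 CPM in untreated, 12.5, 13.0 and 10.7 in TALE and 13.0, 13.2 and 19.4 in dCas9 libraries, on 27 to 51 counts. The groups overlapped against untreated, and TALE lay just below dCas9. Its log2 difference was -0.21 for TALE (SE 0.26, 95% interval -0.73 to 0.31) and 0.12 for dCas9 (-0.38 to 0.62). The region upstream of VTRNA1-1 read 12.3, 14.9 and 12.1 CPM in untreated, 13.4, 21.2 and 14.0 in TALE and 15.4, 13.0 and 18.1 in dCas9 libraries. All groups overlapped, with differences of 0.31 for TALE (SE 0.25, 95% interval -0.19 to 0.81) and 0.23 for dCas9 (-0.27 to 0.74).

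The region with the most counts, not corrected for length, was also the longest of the 12, with 1416 bases downstream of MALAT1 at chr11:65276496-65277911. It read 38.1, 43.3 and 40.8 CPM in untreated, 53.6, 36.1 and 51.9 in TALE and 37.1, 47.3 and 47.1 in dCas9 libraries. Groups overlapped, and the differences were 0.22 for TALE (SE 0.15, 95% interval -0.086 to 0.52) and 0.11 for dCas9 (-0.19 to 0.42). Upstream of MALAT1, at chr11:65263330-65263603, levels were 5.22, 8.49 and 8.41 in untreated and 5.08, 5.10 and 4.12 CPM in TALE libraries, and did not overlap. The dCas9 libraries read 7.51, 3.90 and 4.32 CPM. This was the single region of 8 that did not overlap for TALE against untreated, where 10.2% of all tested regions did not. It differed by -0.63 (SE 0.39, 95% interval -1.40 to 0.14). Inside NEAT1, at chr11:65209638-65209878, TALE read 10.2, 8.24 and 5.22, dCas9 7.51, 4.93 and 2.59 and untreated 4.92, 5.94 and 1.87 CPM. TALE overlapped untreated, with a difference of 0.88 (SE 0.41, 95% interval 0.069 to 1.70, unadjusted p 0.0338).

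No region beside a member was called. The counts were 0 of 8 in each comparison by edgeR at a Benjamini-Hochberg adjusted p under 0.05, and 0%, 0.000947% and 0.000947% of 105652 tested regions were called for TALE and for dCas9 against untreated and for TALE against dCas9. At an unadjusted p under 0.05 they were 1, 0 and 0 of 8, against 4.74, 4.69 and 4.47% of all regions. With 10.3 and 9.97% of all regions not overlapping for dCas9 against untreated and TALE against dCas9, 0 and 1 of the 8 did not. DESeq2 called 0 of the 8 in each comparison. Counts at these regions were between 4 and 189 per library, which leaves the intervals wide.

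**Figure D5:**
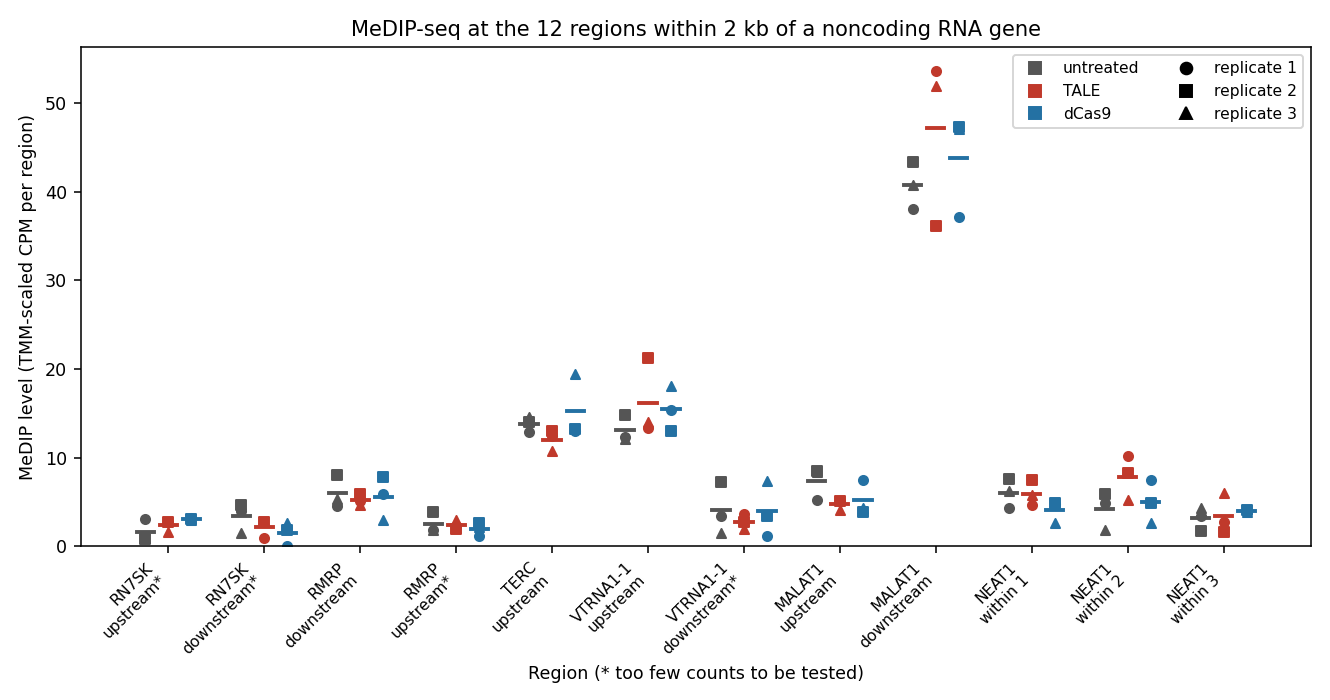
MeDIP level (TMM-scaled CPM per region, axis from 0) at the 12 regions within 2 kb of a member, in every library by group colour and replicate marker, with a bar at the group mean. The region downstream of MALAT1 reads 36.1 to 53.6 CPM and no other region exceeds 21.2 CPM, and starred regions were too low to be tested.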

How the data were processed

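RNA-seq and MeDIP-seq were read from the authors' deposited count tables, which hold whole-number counts per gene symbol (55766) and per region (198884) for 9 libraries each. Per the labels' protocols, cDNA was amplified from total RNA, and MeDIP libraries were pooled before capture. STAR 2.3.0 for RNA, and BWA 0.7.5, Picard, MACS2 and bedtools for MeDIP, with the build hg19, are named per the submitters' processing notes. The counting tool, the rule for reads with several matches and the use of strand are not given in the sources used here. The fold enrichment (ratio) per peak in the deposited lists is the authors' and was not printed. The lists served to count libraries with a peak.

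Tests on counts used edgeR 4.0.16 under R 4.3.3 (glmQLFit and glmQLFTest, TMM, filterByExpr with a minimum of 10 counts, prior count 0.125) in 1 model of group means over 9 libraries, with Benjamini-Hochberg adjustment over all genes or regions. Both fits were tested on simulated data. Intervals are 95%. CPM are scaled by TMM factors. Correlations used log2(CPM + 0.5) and exact permutation tests. Genes were placed with GENCODE v44 lifted to GRCh37, where 7 of 9 members matched by symbol, and regions within 2 kb of a gene were used. The text names all members, of each partner list the most abundant gene and the 2 with the largest change, and the 2 nearest genes of each member. RN7SL3, the other vault RNAs and the ratios of counts were chosen after values were seen. Members and lists were chosen with earlier results of these data known. Alternatives were other scalings, DESeq2 1.42.0, other filters, only the 2 groups compared, a replicate block, each library left out, RN7SL1 and RN7SL2 summed, and a 5 kb window. Same-numbered libraries did not deviate together. Some sequences are not reported here.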

Additional observations from a re-analysis of the deposited data

How the results depend on the processing

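Of 414 refits of a member's fold change, 398 kept direction and side of the threshold, 5 were newly called and 11 changed sign, all among estimates that were not called. Without a filter on low counts, 1 member was called for TALE against untreated and 3 for TALE against dCas9, and all genes called were 74, 89 (dCas9 against untreated) and 77. The cause was not tested. As reported, 3, 4 and 0 genes were called. DESeq2 called 9 and 27 genes in the comparisons with untreated, a minimum of 10 counts in every library 1 and 2, and a fit of only the 2 groups 8 for dCas9 against untreated. Leaving out 1 library gave 2 to 16 genes for TALE against untreated, with 16 without TALE replicate 3. For dCas9 against untreated it gave 2 to 10, with 2 without untreated replicate 2, untreated replicate 3, dCas9 replicate 2 or dCas9 replicate 3, 7 without TALE replicate 1, 8 without dCas9 replicate 1 and 10 without TALE replicate 3. For TALE against dCas9 it gave 0 to 21 genes and 0 to 1 members, with NEAT1 called without dCas9 replicate 1.

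Signs changed as follows. For dCas9 against untreated, leaving out 1 library moved RN7SK between -0.12 and 0.31, RPPH1 between -0.21 and 0.18 (-0.17 without dCas9 replicate 1), and TERC between -0.38 and 0.29 (0.029 and 0.0057 without untreated replicate 2 and untreated replicate 3). For TALE against dCas9, it moved RN7SL1 between -0.47 and 0.32 (0.073 without TALE replicate 1) and RN7SL2 between -0.33 and 0.44 (0.13 without TALE replicate 1), and RN7SL2 was 0.029 with library totals alone. With the replicate number as a block, genes called were 3, 2 and 0 and members 0. Same-numbered libraries correlated in their deviations at -0.284 to 0.103 for RNA and -0.0050 to 0.0038 for MeDIP, so the number marks no pairing that these data show, and 2 of 9 RNA libraries correlated best with their own number. All 48 refits of the MeDIP counts, a 5 kb window included, gave 0 member regions called. As shares of all counts, the median TALE difference was -0.43 in place of -0.51. With 3 libraries a group and the spread of these RNAs, intervals span about 1 log2 unit or more.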
